A study of Mus musculus with 16 samples.

Results

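The feeding response of the liver in mice on a low isoleucine diet was read from 8 of the 16 libraries of the series, 4 from refed and 4 from fasted mice. The columns of the count table were chosen by their labels, and every one of 14920 genes with enough counts entered the comparison. All 8 were male mice. Their diet held little isoleucine, which is 1 of the branched-chain amino acids that the body cannot make. It was fed from 10 weeks of age and for 3 weeks, so the mice were 13 weeks old when the liver was taken, either after a 16 h fast or after refeeding. The other 8 mice of the study ate a control amino acid diet with the same ages and feeding states, and they serve here only as the reference for the feeding response. Strain, length of refeeding and time of day of harvest are not given in the sources used.

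Fasting and refeeding are the main switch of liver metabolism. In a fast, glucagon, glucocorticoids and fatty acids from fat tissue drive glucose production, fatty acid oxidation and ketone production, the latter in large part through the nuclear receptor PPAR-alpha. After a meal, insulin and glucose turn on glycolysis, glycogen storage and lipid synthesis through SREBP1c and ChREBP, and amino acids turn on protein synthesis through mTORC1. A shortage of an essential amino acid is sensed by the kinase GCN2, which raises the transcription factor ATF4 and its targets.

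Total expected counts were 29460888 to 34002955 in the fasted and 30405595 to 33822517 in the refed low isoleucine libraries. Levels are given in CPM, counts scaled to a common library total with TMM factors, and the 4 libraries of a group are given in the order 1 to 4. The first principal component of the 8 libraries held 41.4% of the variance and separated refed from fasted. Fasted library 1 and refed library 3 stood apart together on the second component (21.0%), with the highest shares of mitochondrial transcripts (9.42% and 9.11%, against 6.45% to 8.70% in the other 6) and of Mup transcripts (7.08% and 7.01%, against 3.41% to 5.18%). Without both of them 2761 genes were called in place of the 3194 given next. The feeding state coincides with a number in the labels (2 for these fasted, 9 for these refed mice), so whatever that number stands for and the feeding state cannot be told apart. Nothing in the labels says more about how the mice of a group relate, so p-values measure only the spread between libraries. That spread was taken inside the 4 groups of all 16 libraries, so the control libraries enter it too.

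Refeeding changed the level of 3194 of the 14920 genes, which is 21.4%, by edgeR's quasi-likelihood test at a Benjamini-Hochberg adjusted p under 0.05. Of these, 1433 rose (9.60% of the genes tested) and 1761 fell (11.8%). The change was at least 2-fold for 346 of the genes that rose and for 524 of those that fell. The median log2 fold change over all genes was 0.02. With library size alone in place of TMM the median of all genes moved to 0.13 and the split of calls went from 44.9% higher and 55.1% lower to 64.5% higher and 35.5% lower. In bulk liver, fewer cells of a type and less RNA per cell cannot be told apart.

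**Figure D1:**
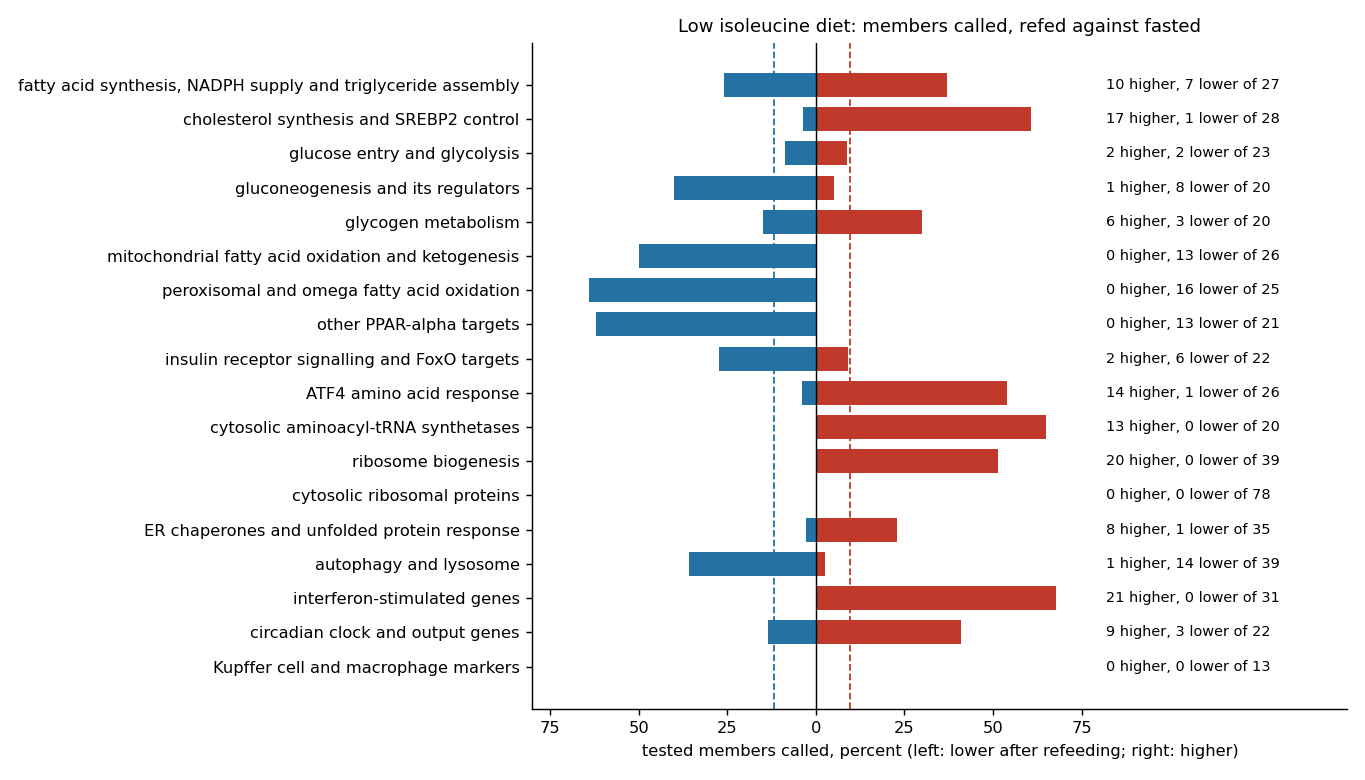
Share of the tested members of 18 gene lists that were lower (left, blue) or higher (right, red) in refed than in fasted livers on the low isoleucine diet, with the share of all genes tested as dashed lines (11.8% lower, 9.60% higher). The bars of the 3 fatty acid oxidation lists extend left, with 13 of 26, 16 of 25 and 13 of 21 members lower, and those of cholesterol synthesis, ATF4 response, tRNA synthetases, ribosome biogenesis and interferon-stimulated genes extend right.

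Among genes with a mean of at least 1 CPM, no overlap between groups and an established name, the largest rises included Chac1, a glutathione-degrading enzyme (log2 fold change 4.96), the stress transcription factor Atf3 (3.96), the male steroid dehydrogenase Hsd3b5 (3.79), and the mitochondrial folate enzyme Mthfd2 (3.79). They also included the growth arrest gene Gadd45a (3.67), the acetoacetate-activating enzyme Aacs (3.56), the sterol enzyme Mvd (3.33), the serine synthesis enzyme Psat1 (3.28), the retinoic acid hydroxylase Cyp26a1 (3.26) and the carbonic anhydrase Car3 (3.15). Angptl8, a feeding-induced secreted protein (3.13), and Mid1ip1, a partner of acetyl-CoA carboxylase (3.04), completed the 12. The largest falls by the same rule were of the glycogen-targeting phosphatase subunit Ppp1r3g (-5.89), the lipoprotein lipase inhibitor Angptl4 (-3.62), the lysophospholipid transporter Mfsd2a (-3.56) and the pyruvate dehydrogenase kinase Pdk4 (-3.45). Npnt, a matrix protein (-3.21), Zbtb16, a zinc finger repressor (-3.19), Zbed5 (-3.07), the small GTPase Rab30 (-2.97), the ubiquitin ligase Rnf125 (-2.96), Gadd45g (-2.92), the metallothionein Mt2 (-2.88) and the mitochondrial carrier Slc25a47 (-2.83) followed. Every one of these 24 genes passed the test and, as the naming rule required, had all refed libraries on one side of all fasted libraries. Of all genes tested, 11.6% lay wholly higher and 13.1% wholly lower in the refed group. Without fasted library 2 Gadd45g no longer passed (adjusted p = 0.0538).

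Rab30 and Ppp1r3g show 2 forms of such a fall. Rab30 stood at 59.8, 58.7, 62.02 and 42.7 CPM in the fasted and 7.49, 7.81, 6.34 and 6.77 CPM in the refed libraries (log2 fold change -2.97, SE 0.16, adjusted p = 2.66e-08), and the 2 groups were far apart with little spread inside either. Ppp1r3g went from 4.33, 2.28, 6.77 and 1.65 CPM to 0, 0.031, 0.15 and 0.0574 CPM (log2 fold change -5.89, SE 1.11, adjusted p = 0.0017), so that it was scarce in every refed library and had no count in library 1. A fold change with so few refed counts depends on the prior count of the fit.

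Pklr and several genes of lipid synthesis were higher in the refed livers. Pklr, the liver pyruvate kinase and a ChREBP target, stood at 57.4, 38.4, 42.4 and 59.2 CPM in the fasted and 269, 159.7, 161 and 150.2 CPM in the refed libraries (log2 fold change 1.91, SE 0.4, adjusted p = 0.00363). The groups did not overlap, and refed library 1 was well above the other 3 refed libraries. Of 23 tested genes of glucose entry and glycolysis 2 rose, Pklr among them, 2 fell (Pfkfb1 and Ldha) and 19 missed the threshold (median log2 fold change 0.16). Both counts lay near the share of all genes tested (9.60% higher, 11.8% lower). The call of Pfkfb1 ended without fasted library 2 or refed library 1, 2 or 4, and that of Ldha without fasted library 2, 3 or 4 or refed library 1 or 3, so that the count of falls went down to 0 without fasted library 2 or refed library 1 and to 1 without each of the others named.

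Srebf1, which encodes the lipogenic factor SREBP1, stood at 12.7, 17.9, 11.1 and 14.2 CPM in the fasted and 99.8, 56.97, 42.7 and 59.4 CPM in the refed libraries (log2 fold change 2.21, SE 0.37, adjusted p = 7.66e-04). Fasn, the fatty acid synthase, stood at 51.01, 51.1, 68.9 and 57.7 CPM in the fasted and 390.1, 387, 203 and 265 CPM in the refed libraries, a 5.44-fold rise of the mean (log2 fold change 2.44, SE 0.47, adjusted p = 0.00193). For both genes the lowest refed library, library 3, was still well above the highest fasted library. Aacs stood at 3.6, 2.94, 3.64 and 5.44 CPM in the fasted and 49.5, 51.2, 30.9 and 52.6 CPM in the refed libraries (log2 fold change 3.56, SE 0.53, adjusted p = 3.71e-04), and the lipogenic coactivator Thrsp at 11.6, 8.46, 4.97 and 8.1 CPM in the fasted and 80.3, 41.6, 63.3 and 52.4 CPM in the refed libraries (log2 fold change 2.85, SE 0.72, adjusted p = 0.0121). Both lay higher in every refed library than in any fasted library. Scd1, the stearoyl-CoA desaturase that is usually counted with them, went the other way, from 1580, 2071, 1510 and 2153 CPM in the fasted to 334, 952, 568 and 343 CPM in the refed libraries (log2 fold change -1.74, SE 0.56, adjusted p = 0.0382). Its groups did not overlap either, but the call ended without any one of the fasted libraries, without refed library 1, 3 or 4 and without control refed library 1, with adjusted p up to 0.107.

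On the list of fatty acid synthesis, NADPH supply and triglyceride assembly 10 of 27 tested genes rose, 7 fell and 10 missed the threshold (median log2 fold change 0.21). Acly, the ATP citrate lyase (1.29), and the elongase Elovl6 (1.12) also rose. The members that fell included Cidec, a lipid droplet protein (-2.57), and Lpin1, a phosphatidate phosphatase that is also a coactivator of fasting genes (-1.84). Cidec is also 1 of the 2 tested adipocyte markers. Lpin1 did not pass without fasted library 2 (adjusted p = 0.0551) or refed library 2 (0.0508).

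Cholesterol synthesis genes rose together. Of 28 tested genes of this pathway and its SREBP2 control 17 rose, 1 fell and 10 did not pass, and the median log2 fold change was 1.23. Mvd, the mevalonate diphosphate decarboxylase, stood at 2.75, 1.73, 2.32 and 1.93 CPM in the fasted and 15.1, 26.2, 13.1 and 33.3 CPM in the refed libraries (log2 fold change 3.33, SE 0.67, adjusted p = 0.0029), and every refed library was several times higher than any fasted one. Mvk, the mevalonate kinase (2.14), and Lss, the lanosterol synthase (1.73), rose as well. Insig2, which holds SREBP in the endoplasmic reticulum, was the member that fell (-1.81).

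Fasted library 1 was the highest fasted library for 20 of the 28 sterol genes. For Idi1, the isopentenyl diphosphate isomerase, the libraries read 141, 46.9, 38.7 and 38.8 CPM in the fasted and 189.7, 368, 240.1 and 274 CPM in the refed libraries (log2 fold change 2.02, SE 0.59, adjusted p = 0.0246). The fasted group was thus close together but for library 1, which came near the lowest refed library. Idi1 did not pass without fasted library 2, 3 or 4 or refed library 2, with adjusted p between 0.0636 and 0.071. The count of 17 went down to 9 without fasted library 2, to 11 without fasted library 4 and to 10 without refed library 2, and it was 10 with no filter on low counts. Without fasted library 1 and refed library 3 together it was 17. The median stayed between 1.09 and 1.54 when any one library was left out.

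Genes of glucose production were lower in the refed livers. Pck1, the phosphoenolpyruvate carboxykinase, stood at 2553, 3886, 4136 and 3190 CPM in the fasted and 798, 609, 733 and 1662 CPM in the refed libraries, a 3.62-fold fall of the mean (log2 fold change -1.86, SE 0.36, adjusted p = 0.00177). The groups did not overlap, although refed library 4 lay well above the other refed libraries. G6pc, the catalytic subunit of glucose-6-phosphatase, stood at 383, 542, 657 and 328 CPM in the fasted and 209, 102, 220.1 and 118 CPM in the refed libraries (log2 fold change -1.56, SE 0.44, adjusted p = 0.0205), without overlap, and did not pass without fasted library 3 (adjusted p = 0.0565), refed library 2 (0.0634) or refed library 4 (0.063). Ppargc1a, the coactivator PGC-1alpha, stood at 21.9, 12.8, 10.99 and 19.3 CPM in the fasted and 4.46, 4.25, 6.25 and 3.59 CPM in the refed libraries (log2 fold change -1.81, SE 0.32, adjusted p = 0.00102), and all refed libraries were below all fasted ones. Of 20 tested genes of gluconeogenesis and its regulators 8 fell, 1 rose and 11 missed the threshold (median -0.31.) The 1 member that rose was the alanine aminotransferase Gpt (0.67), a call that ended without fasted library 1 or 2 or refed library 1 or 4, and a further member passed without fasted library 4. Got1, an aspartate aminotransferase (-1.41), and Foxo1, the insulin-restrained transcription factor (-0.97), were among those that fell.

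The readouts of insulin action on FoxO factors moved unevenly. Irs2, the insulin receptor substrate that rises in a fast, stood at 22.2, 17.1, 41.2 and 20.6 CPM in the fasted and 9.78, 7.69, 13.6 and 8.29 CPM in the refed libraries (log2 fold change -1.36, SE 0.33, adjusted p = 0.00845), and the groups did not overlap. Igfbp1, a secreted IGF-binding protein and a FoxO1 and ATF4 target, stood at 76.7, 104, 243 and 68.96 CPM in the fasted and 9.48, 79.01, 7.48 and 107 CPM in the refed libraries (log2 fold change -1.28, SE 0.87, adjusted p = 0.337). It did not pass. Refed libraries 1 and 3 were far below the fasted libraries, and refed libraries 2 and 4 were inside the fasted range. Of 22 tested genes of this list 6 fell, 2 rose and 14 missed the threshold (median -0.29). Of all genes tested 11.8% fell and 9.60% rose, and the 2 rises lay near the latter share. The insulin receptor Insr (-0.86) and the catalytic kinase subunit Pik3ca (-0.8) were among those that fell, and the regulatory kinase subunit Pik3r1 (0.88) and the phosphatase Inpp5f (0.57) rose.

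Glycogen genes moved in both directions, and members of like role did not move together. Ppp1r3b, the liver subunit that brings the phosphatase to glycogen and favours synthesis, stood at 122, 178, 152 and 171 CPM in the fasted and 367, 316, 301 and 290.5 CPM in the refed libraries (log2 fold change 1.03, SE 0.23, adjusted p = 0.00395), with no overlap. Its relative Ppp1r3c also rose (1.39), whereas Ppp1r3g fell as given above, and the liver glycogen synthase Gys2 (-0.84) and the kinase Gsk3b that inhibits it (-0.46) fell. Pygl, the phosphorylase that breaks glycogen down, rose (0.54) but did not pass without fasted library 3 or refed library 1. On the whole list 6 of 20 tested members rose, 3 fell and 11 did not pass, beside 9.60% of all genes tested that rose and 11.8% that fell. The count of 6 went down to 3 without fasted library 3 or without refed library 1.

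Fatty acid oxidation genes were lower after refeeding, and none of the 3 lists had a member that rose. Of 26 tested genes of mitochondrial oxidation and ketogenesis 13 fell, with a median of -0.42. Of 25 genes of peroxisomal and omega oxidation 16 fell, with a median of -0.71, and of 21 other PPAR-alpha targets 13 fell, with a median of -0.89. Without refed library 3 there was 1 rise on the last of these lists. Without fasted library 1 and refed library 3 together 12, 15 and 11 of them fell. The background for falls was the 11.8% given above.

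Cpt1a, the carnitine palmitoyltransferase that admits long-chain fatty acids to mitochondria, stood at 1211, 1182, 1075 and 1181 CPM in the fasted and 356, 485, 427 and 336 CPM in the refed libraries, a 2.9-fold fall (log2 fold change -1.54, SE 0.15, adjusted p = 3.01e-06). Ehhadh, the peroxisomal bifunctional enzyme, stood at 3446, 7148, 5610 and 4824 CPM in the fasted and 1616, 2654, 1600 and 1505 CPM in the refed libraries (log2 fold change -1.51, SE 0.26, adjusted p = 7.56e-04). Neither gene's groups overlapped, and refed library 2 was the highest refed library for both. Pdk4, which switches pyruvate away from oxidation, stood at 30.5, 77.2, 45.7 and 17.3 CPM in the fasted and 3.46, 3.53, 5.8 and 2.84 CPM in the refed libraries (log2 fold change -3.45, SE 0.44, adjusted p = 7.84e-05). Angptl4 stood at 120.3, 215, 217 and 164 CPM in the fasted and 13.6, 14.4, 10.1 and 20.03 CPM in the refed libraries (log2 fold change -3.62, SE 0.29, adjusted p = 6.91e-07). For both, every refed library was far below the lowest fasted library.

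The receptor gene Ppara itself fell (-1.77), as did the lipid droplet coat protein Plin2 (-1.86), the glycerol channel Aqp3 (-3.35), glycerol kinase Gk (-1.64), the carnitine acyltransferases Crat (-1.42) and Crot (-1.33), and the acyl-CoA thioesterases Acot1 (-1.9), Acot2 (-2.18), Acot3 (-2.1) and Acot4 (-1.53). The Acot genes are a cluster of close copies, so how reads were divided among them is uncertain.

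**Figure D2:**
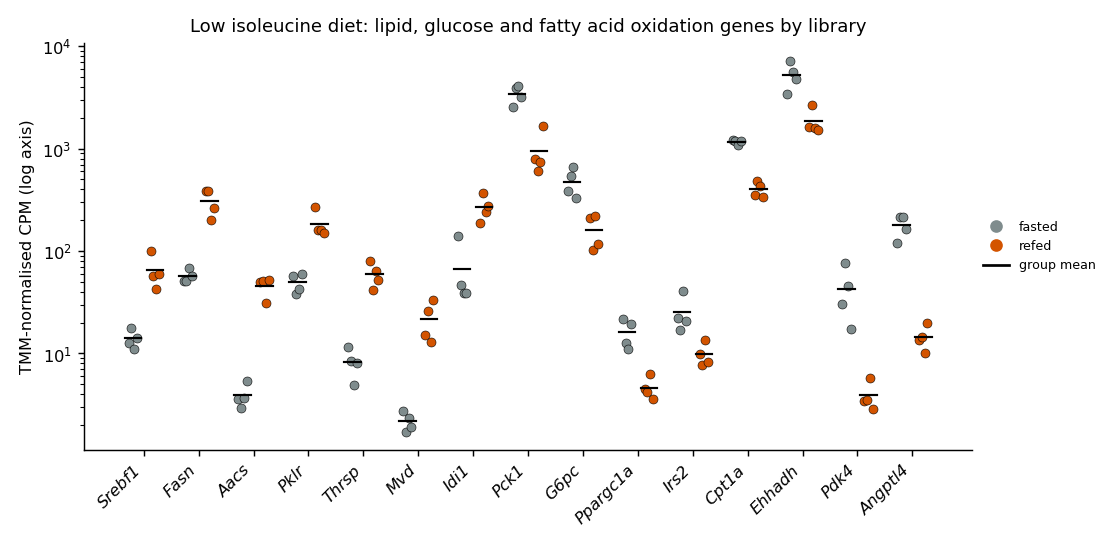
TMM-normalised CPM on a log axis for 15 genes of lipid, glucose and fatty acid metabolism in the 4 fasted (grey) and 4 refed (orange) low isoleucine libraries, with lines at the group means. Srebf1 to Idi1 are higher in all 4 refed libraries and Pck1 to Angptl4 are lower in all 4, with fasted library 1 of Idi1 (140.6 CPM) apart from its group.

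Chac1 and Atf3, both linked to ATF4, led the 12 rises named above, and the refed livers differed widely in these genes. Chac1, a direct target of ATF4, stood at 0.477, 0.587, 0.15 and 0.428 CPM in the fasted and 4.67, 16.3, 0.988 and 29.1 CPM in the refed libraries (log2 fold change 4.96, SE 0.89, adjusted p = 0.00132). Atf3 stood at 1.25, 1.04, 0.753 and 0.947 CPM in the fasted and 11.8, 18.4, 3.17 and 28.7 CPM in the refed libraries (log2 fold change 3.96, SE 0.49, adjusted p = 5.14e-05), and Mthfd2 at 0.698, 0.725, 0.572 and 0.489 CPM in the fasted and 6.08, 5.86, 1.44 and 21.1 CPM in the refed libraries (log2 fold change 3.79, SE 0.63, adjusted p = 5.98e-04). In all 3 genes every refed library was above every fasted one, refed library 4 was the highest and refed library 3 the lowest. Over the 14 members of the ATF4 list that rose, refed library 4 was the highest refed library for 12 and refed library 3 the lowest for 12. The mean of log2(CPM + 0.5) over all 26 tested members was 3.38, 3.93, 2.67 and 4.41 in refed libraries 1 to 4 and 2.48, 2.65, 2.75 and 2.52 in fasted libraries 1 to 4, so that refed library 3 lay within the fasted range.

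Of 26 tested genes on the ATF4 list 14 rose, 1 fell and 11 missed the threshold (median 1.24.) Without fasted library 1 and refed library 3 together 15 rose. Without refed library 4 the number that rose was 9, and the median was 0.88. Atf4 itself rose (1.34), with its partner Ddit3, the factor CHOP (2.24), and the serine enzymes Psat1 (3.28) and Psph (1.28). Cebpb was the member that fell (-1.12). Vldlr, the very low density lipoprotein receptor (0.99), passed as well, but not without any one of the fasted libraries or without refed library 1, 2 or 4 (adjusted p up to 0.0805).

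Asns, the asparagine synthetase and a textbook ATF4 target, stood at 11.3, 8.26, 8.43 and 5.62 CPM in the fasted and 8.28, 12.2, 8.89 and 24.5 CPM in the refed libraries (log2 fold change 0.68, SE 0.62, adjusted p = 0.488). Refed library 4 was well above the rest, and the other refed libraries lay in or next to the fasted range. Fgf21, a fasting and amino acid stress hormone, stood at 6.54, 13.8, 22.5 and 11.7 CPM in the fasted and 13.2, 97.4, 5.03 and 56.4 CPM in the refed libraries (log2 fold change 1.66, SE 0.76, adjusted p = 0.143). Refed libraries 2 and 4 were above all fasted libraries, whereas refed library 3 was below all of them. Without refed library 3 Fgf21 passed (adjusted p = 0.0491). The source of the spread among the refed livers was not tested.

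**Figure D3:**
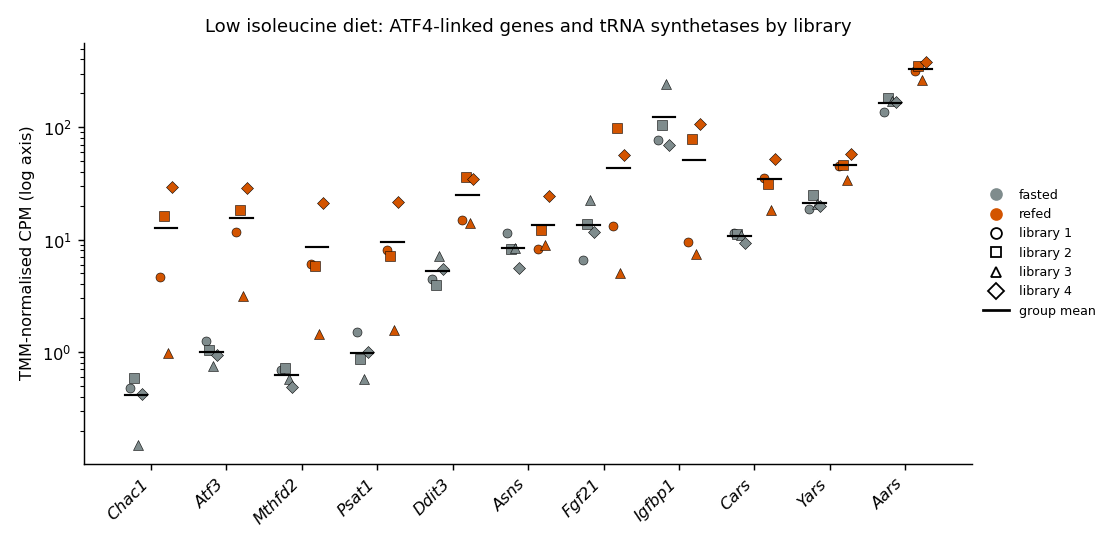
TMM-normalised CPM on a log axis for ATF4-linked genes and 3 tRNA synthetases in the 4 fasted (grey) and 4 refed (orange) low isoleucine libraries, with a symbol for each library number and lines at the group means. Refed Chac1 runs from 0.988 to 29.1 CPM, Asns, Fgf21 and Igfbp1 overlap between the groups, and Yars is separate in the 2 groups.

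Promoter windows of the first 2 genes are shown because both genes lead the ATF4 list and a short ATF4-type word lies in both. The windows run from 250 bases before to 50 after the RefSeq gene start in build GRCm38.p6, and capitals mark the word TGATGNAA, here read on the opposite strand of the printed one.
Chac1 chr2:119350992-119351291 (plus strand): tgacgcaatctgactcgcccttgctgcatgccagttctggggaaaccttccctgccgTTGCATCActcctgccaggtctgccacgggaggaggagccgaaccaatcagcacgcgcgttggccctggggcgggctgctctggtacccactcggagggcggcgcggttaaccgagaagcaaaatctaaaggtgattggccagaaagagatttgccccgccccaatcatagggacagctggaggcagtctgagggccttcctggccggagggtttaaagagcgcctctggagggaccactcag
Atf3 chr1:191183284-191183583 (minus strand): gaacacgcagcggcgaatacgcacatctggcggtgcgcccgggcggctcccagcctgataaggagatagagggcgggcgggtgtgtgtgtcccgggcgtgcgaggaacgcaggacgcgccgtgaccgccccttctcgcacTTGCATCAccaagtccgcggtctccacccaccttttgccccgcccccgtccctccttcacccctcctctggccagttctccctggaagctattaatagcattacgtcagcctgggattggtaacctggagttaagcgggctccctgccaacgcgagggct
In Chac1 the word began 193 bases and in Atf3 110 bases before the gene start. Either strand was searched, and the word was held by 4.51% of the 27025 genes with a window, by 7 of the 24 ATF4-list genes with a window and by 5 of 13 tRNA synthetase genes. The word was chosen after the gene values had been seen, and a match describes letters, not binding.

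Cytosolic aminoacyl-tRNA synthetases, which load amino acids onto tRNAs and of which several are ATF4 targets, rose in 13 of 20 cases with none lower, and their median was 0.50. Yars, the tyrosyl-tRNA synthetase, stood at 18.7, 24.9, 20.9 and 20.01 CPM in the fasted and 45.5, 46.4, 34.2 and 58.2 CPM in the refed libraries (log2 fold change 1.12, SE 0.14, adjusted p = 3.59e-05). The groups were separate, and refed library 3 was again the lowest and library 4 the highest of the refed. Cars, for cysteine (1.67), Aars, for alanine (1.0), Sars, for serine (0.74), Iars, the isoleucyl-tRNA synthetase (0.67), and Wars, for tryptophan (0.64), rose too.

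Amino acid transporters moved in both directions, 5 of 27 up and 5 down (median -0.06), beside 9.60% of all genes tested that rose and 11.8% that fell. The neutral amino acid carriers Slc1a4 (2.15) and Slc7a5 (1.11), both linked to ATF4, rose, with Slc3a2, the heavy chain that pairs with Slc7a5 (0.63), and the betaine carrier Slc6a12 (0.4). Slc7a1, a cationic carrier (1.47), passed too, but not without fasted library 1, 2 or 4 or refed library 2 or 4. The cationic carrier Slc7a2 (-1.76), the neutral carrier Slc38a4 (-0.98) and the mitochondrial carriers Slc25a13 (-0.47), Slc25a22 (-1.26) and Slc25a47 (-2.83) fell. On the list of branched-chain amino acid catabolism, the route by which isoleucine is broken down, 1 of 21 rose, 2 fell and 18 did not pass. Neither count was above the share of all genes tested (9.60% higher, 11.8% lower). Ppm1k, the phosphatase that activates the branched-chain ketoacid dehydrogenase, was the clear change, at 134, 91.1, 83.2 and 83.5 CPM in the fasted and 16.8, 31.4, 25.1 and 25.7 CPM in the refed libraries (log2 fold change -1.98, SE 0.21, adjusted p = 6.66e-06), without overlap. The other 2 calls, Aldh6a1 (-0.39) and Mccc1 (0.37), lay in overlapping groups. The call of Aldh6a1 ended on leaving out any one of 13 libraries and that of Mccc1 without fasted library 3 or refed library 1 or 3. Of 39 genes of amino acid catabolism and the urea cycle 4 rose and 4 fell, near the 9.60% that rose and the 11.8% that fell of all genes tested. Glud1, the glutamate dehydrogenase (0.65), Agxt2, a mitochondrial aminotransferase (0.59), Shmt1, the cytosolic serine hydroxymethyltransferase (0.52), and Prodh, the proline dehydrogenase (0.66), rose. Tdo2, the tryptophan dioxygenase (-0.78), Kynu, the kynureninase (-0.7), Dpyd, a pyrimidine dehydrogenase (-0.39), and Mat1a, the liver methionine adenosyltransferase (-0.51), fell. The count of falls was 2 without fasted library 2 or 4 or refed library 2 or 4, and Prodh did not pass without 9 of the 16 libraries in turn, with adjusted p up to 0.115.

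Ribosome biogenesis genes, which act in the nucleolus to build ribosomes, rose in 20 of 39 cases with none lower (median 0.36). Nop56 (0.94), Rrp12 (0.97) and Bysl (0.85) were among them. The count was 13 without refed library 1 and 12 without refed library 4. None of the 78 cytosolic ribosomal protein genes passed, although 76 had a positive log2 fold change (median 0.15), and without fasted library 4 there was 1 call and with library size alone 4. Without refed library 4 their median was -0.0025. Of 25 purine, pyrimidine and folate genes 9 rose, 2 fell and 14 did not pass (median 0.11). Umps, the last enzyme of pyrimidine synthesis, stood at 19.7, 16.4, 20.9 and 18.2 CPM in the fasted and 42.3, 36.4, 38.4 and 39.2 CPM in the refed libraries (log2 fold change 1.06, SE 0.13, adjusted p = 4.36e-05). The 2 groups were each tightly packed and separate. Cad, the first enzyme of that pathway (1.25), and Ctps, the CTP synthase (0.94), rose with it. Upp2, a uridine phosphorylase (-1.15), was among the falls and did not pass without fasted library 1 or 4 or refed library 1 or 2.

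Autophagy and lysosome genes went the other way, with 14 of 39 lower, 1 higher and a median of -0.20. Ulk1, the kinase that starts autophagy (-1.16), Gabarapl1 (-1.3), Map1lc3b (-0.84) and Wipi1 (-1.4), which build the autophagosome, and Bnip3l, a mitophagy receptor (-0.98), fell. With library size alone 9 of the 39 were lower, and the 1 rise, Atg4b (0.24), did not hold without any one of 14 of the 16 libraries. On the list of mTORC1 and amino acid sensing 6 of 27 fell and 3 rose, beside 11.8% of all genes tested that fell and 9.60% that rose. Mtor (-0.71), its inhibitor Deptor (-0.99), the translation repressor Eif4ebp2 (-0.89) and Fnip1, a folliculin partner (-1.38), fell, and Mlst8, an mTOR subunit (0.74), and Nprl2 (0.42) and Nprl3 (0.45), subunits of an inhibitor of amino acid signalling to mTORC1, rose. The 3 rises became 1 without fasted library 1 or refed library 1, 2 or 4.

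Chaperones of the endoplasmic reticulum rose in 8 of 35 cases and fell in 1, Atf6 (-0.48), with a median of 0.38. Hspa5, the chaperone BiP, stood at 843, 655, 891 and 591 CPM in the fasted and 1066, 2174, 2275 and 1419 CPM in the refed libraries (log2 fold change 1.22, SE 0.36, adjusted p = 0.0233). The groups did not overlap, and refed libraries 2 and 3 were the high ones while refed library 1 was lowest, an order that differs from that of the ATF4 list. Hspa5 did not pass without fasted library 2 or 4 or refed library 2 or 3 (adjusted p between 0.0616 and 0.0674). Manf, a secreted stress protein of this compartment (1.56), Sec61b, a translocon subunit (0.86), and Ppib, a prolyl isomerase (0.69), rose. The count of 8 was 5 without fasted library 2 or 4 or refed library 2 or 3, 3 without fasted library 1 and refed library 3 together, and 13 with library size alone. Of 26 heat shock protein genes 3 rose, among them the cochaperones Fkbp4 (1.07) and Stip1 (0.84), and with library size alone 9 did. The 3 rises lay near the 9.60% of all genes tested that rose.

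The Hspa5 window is shown because the ER stress word, CCAAT and CCACG with 9 bases between them, was on 10 of the 29 listed genes with a window and on 0.137% of all genes with one. Capitals mark the word, which began 65 bases before the gene start.
Hspa5 chr2:34771840-34772139 (plus strand): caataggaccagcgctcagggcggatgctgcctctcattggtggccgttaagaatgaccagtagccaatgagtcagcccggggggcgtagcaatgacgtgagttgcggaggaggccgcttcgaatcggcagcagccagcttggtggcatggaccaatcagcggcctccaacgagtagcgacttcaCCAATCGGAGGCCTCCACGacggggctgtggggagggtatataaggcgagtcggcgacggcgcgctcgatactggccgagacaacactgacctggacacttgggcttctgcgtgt
Among the 8 listed genes that rose 7 had a window, and 2 of these held the word. The other words searched were CACCCCAC for SREBP (3.3% of all genes, 2 of 20 sterol genes), TGACGTCA for the cAMP response (2.03%, none of 16 gluconeogenic genes) and AGGTCA repeated with 1 base between (0.0481%, none of the 3 PPAR-alpha lists).

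Interferon-stimulated genes, the antiviral set that interferon switches on, were higher in the refed livers. Of 31 tested genes 21 rose and none fell, all 31 had a positive log2 fold change, and the median was 0.75. Oasl1, an OAS-like regulator of IRF7, stood at 7.16, 8.22, 6.05 and 7.03 CPM in the fasted and 26.9, 28.2, 23.5 and 24.7 CPM in the refed libraries (log2 fold change 1.86, SE 0.19, adjusted p = 4.91e-06). Isg15, a ubiquitin-like modifier, stood at 7.05, 4.21, 4.997 and 7.09 CPM in the fasted and 14.3, 25.9, 15.1 and 21.3 CPM in the refed libraries (log2 fold change 1.71, SE 0.32, adjusted p = 0.00153), and Ifit1, which binds viral RNA, at 17.7, 7.91, 6.65 and 8.55 CPM in the fasted and 23.5, 31.8, 33.96 and 19.1 CPM in the refed libraries (log2 fold change 1.41, SE 0.32, adjusted p = 0.00491). None of the 3 genes overlapped between groups. The chemokine Cxcl10 (2.25), the GTPase Mx1 (1.11) and Usp18, which removes ISG15 (1.06), rose, and so did the immunoproteasome subunit Psmb8 (0.64).

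Fasted library 1 was the highest fasted library for 24 of the 31 interferon genes, and refed library 2 the highest refed library for 20. Between 15 and 23 members rose when any one library was left out, and 20 without fasted library 1 and refed library 3 together. The mean of log2(CPM + 0.5) over the 31 genes was 3.5, 2.87, 2.9 and 2.99 in fasted and 3.75, 4.08, 3.9 and 3.68 in refed libraries 1 to 4 of the low isoleucine diet. On the control diet it was 4.0, 3.8, 3.82 and 4.2 in the fasted and 4.09, 4.52, 4.08 and 3.85 in the refed libraries. The fasted low isoleucine libraries lay below every control library, and the refed low isoleucine libraries overlapped the fasted control libraries. The groups of the 2 diets were not tested against each other here. Markers of Kupffer cells and macrophages, resident immune cells that also express this set, had 0 of 13 calls in the same comparison and a median of -0.03, and their summed level was 242 to 354 CPM in the fasted and 228 to 413 CPM in the refed libraries. Lymphocyte markers had 0 of 12 calls and summed to 6.87 to 13.9 CPM fasted and 8.29 to 13.6 CPM refed. The part of cell makeup in the interferon result was not tested further. The Ifit genes are close copies, so their division of reads is uncertain.

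**Figure D4:**
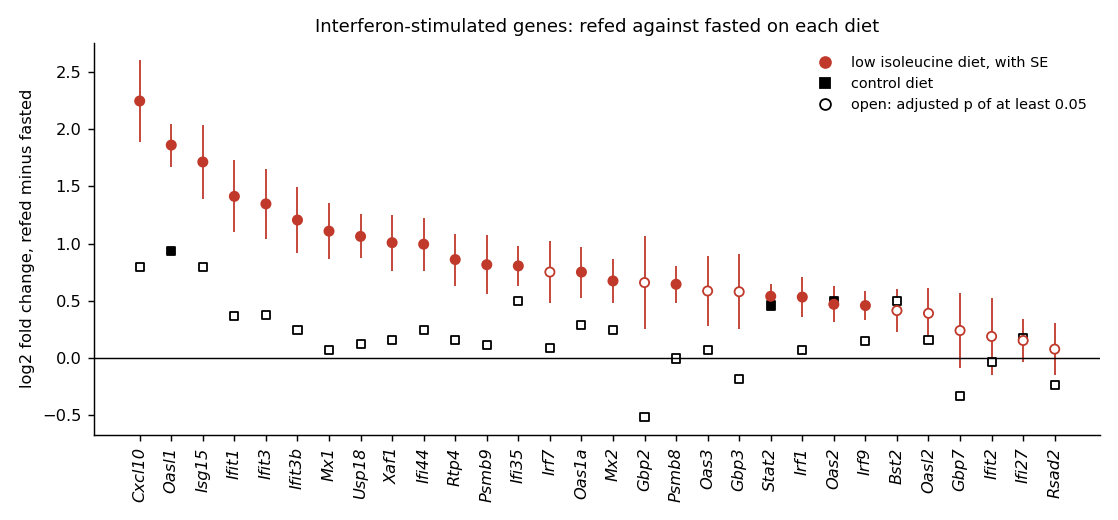
Log2 fold change (refed minus fasted) of 30 of the 31 interferon-stimulated genes on the low isoleucine diet (red circles with SE from edgeR) and the control diet (black squares), filled where the adjusted p was under 0.05. On the low isoleucine diet 20 of the genes drawn are filled and all 30 are above 0, and on the control diet 3 are filled.

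The windows of Isg15 and Ifit1 are shown for the interferon-type word, GAAA repeated with 2 bases between, marked in capitals.
Isg15 chr4:156200769-156201068 (minus strand): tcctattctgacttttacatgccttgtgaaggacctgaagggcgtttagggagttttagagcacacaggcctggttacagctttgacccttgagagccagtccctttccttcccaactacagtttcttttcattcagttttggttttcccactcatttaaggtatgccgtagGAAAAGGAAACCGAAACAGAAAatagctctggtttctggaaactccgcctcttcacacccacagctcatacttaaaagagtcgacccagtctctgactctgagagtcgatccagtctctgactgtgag
Ifit1 chr19:34640639-34640938 (plus strand): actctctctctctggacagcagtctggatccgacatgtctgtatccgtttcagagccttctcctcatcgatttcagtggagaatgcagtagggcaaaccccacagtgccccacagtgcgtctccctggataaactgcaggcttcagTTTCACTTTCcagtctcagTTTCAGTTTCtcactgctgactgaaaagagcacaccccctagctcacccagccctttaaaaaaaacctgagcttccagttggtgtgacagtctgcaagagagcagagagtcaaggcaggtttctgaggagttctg
Isg15 held 3 overlapping matches that began 78, 72 and 66 bases before the gene start. Ifit1 held 2 on the opposite strand, which began 104 and 85 bases before it on the printed strand. The word, chosen after the values were seen, was on 13 of 24 listed genes with a window, on 7 of the 15 that rose and had one, and on 3.99% of all genes with a window.

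Clock and clock-output genes were higher in 9 of 22 cases and lower in 3, with a median of 0.11. Of all genes tested 9.60% rose and 11.8% fell. Per2, a period gene that also answers to feeding and glucocorticoids, stood at 10.98, 7.15, 14.9 and 12.7 CPM in the fasted and 63.4, 44.2, 56.4 and 73.5 CPM in the refed libraries (log2 fold change 2.37, SE 0.26, adjusted p = 1.27e-05), a wide gap between groups. Ciart, a clock repressor, stood at 6.57, 10.3, 3.58 and 9.11 CPM in the fasted and 18.1, 17.5, 18.9 and 26.3 CPM in the refed libraries (log2 fold change 1.45, SE 0.26, adjusted p = 9.11e-04), with a smaller gap and no overlap. Per3 (1.5), Cry1 (1.12) and Wee1 (1.26) rose, and Clock (-0.74), Nr1d2 (-0.57) and Rora (-0.55) fell, the last not without refed library 2 (adjusted p = 0.0504). Whether fasted and refed livers were taken at the same time of day is not given in the sources used. Feeding state and time of day therefore cannot be told apart in these genes, nor in any other gene of the comparison. Among 17 glucocorticoid targets and metallothioneins 7 fell and 1 rose, with a median of -0.88. Klf9 (-1.95), Zbtb16 (-3.19) and Mt2 (-2.88) fell, the rise was of Tsc22d3, the glucocorticoid-induced leucine zipper (0.71), which did not pass without fasted library 1 or refed library 4, and the count of 7 became 4 without fasted library 2 or refed library 2.

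Several secreted and male-biased liver products changed strongly. Hamp, the iron hormone hepcidin, stood at 44.2, 210.1, 229 and 395 CPM in the fasted and 1605, 1283, 1299 and 1878 CPM in the refed libraries (log2 fold change 2.79, SE 0.53, adjusted p = 0.00188). Car3, a carbonic anhydrase of liver and fat, stood at 666, 201, 181 and 277 CPM in the fasted and 2546, 2695, 3063 and 3477 CPM in the refed libraries (log2 fold change 3.15, SE 0.42, adjusted p = 1.14e-04), and Hsd3b5 at 14.03, 4.87, 0.843 and 3.06 CPM in the fasted and 67.5, 76.01, 99.8 and 69.6 CPM in the refed libraries (log2 fold change 3.79, SE 0.8, adjusted p = 0.00393). In each of the 3 the refed libraries were close together and the fasted ones spread below them. Lect2, a hepatokine (1.08), Smoc1, a secreted matrix protein (0.56), and Inhba, an activin subunit (0.93), rose, while Socs2, a feedback inhibitor of growth hormone signalling (-2.28), its upstream factor Stat5b (-0.57), the activin subunit Inhbb (-1.38) and the leptin receptor Lepr (-2.19) fell. Inhbb did not pass without fasted library 2 or refed library 2 or 4, Inhba not without fasted library 1, 2 or 4 or refed library 1 or 4, and Lepr not without fasted library 3 or 4 or refed library 1, 3 or 4. On the whole hormone list 4 of 24 rose and 4 fell (median 0.08), beside 9.60% of all genes tested that rose and 11.8% that fell. Without refed library 4 there were 2 falls. Mup20, a male urinary protein from a family of near-identical copies, did not pass, at 3108, 1812, 1515 and 1255 CPM in the fasted and 1280, 1099, 1641 and 1278 CPM in the refed libraries (log2 fold change -0.54, SE 0.37, adjusted p = 0.334), with overlapping groups.

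Bile acid genes were lower in 5 of 23 cases and higher in 1, beside 11.8% of all genes tested that fell and 9.60% that rose. Cyp7a1, the rate-limiting enzyme of bile acid synthesis, stood at 285, 179.8, 289 and 173 CPM in the fasted and 312, 269, 672 and 314 CPM in the refed libraries (log2 fold change 0.76, SE 0.37, adjusted p = 0.167) and did not pass, with refed library 3 far above the rest. The 12-alpha-hydroxylase Cyp8b1 (-1.23), the phospholipid exporter Abcb4 (-1.1) and the sterol exporters Abcg5 (-0.79) and Abcg8 (-1.21) fell, and the bile acid receptor Nr1h4 rose (0.78), with a further rise without control refed library 3 or 4. Cyp39a1, an oxysterol hydroxylase, fell (-0.78) but did not pass without refed library 2 (adjusted p = 0.0628) or 4 (0.0544). Acute phase proteins and their signals were lower in 7 of 26 cases, beside 11.8% of all genes tested that fell. The median of this list was 0.01, with 13 log2 fold changes positive and 13 negative. The receptor Il6ra (-1.18) and the antagonist Il1rn (-2.03) were among the falls. The number of falls was 3 or 4 without fasted library 2, 3 or 4 or refed library 1 or 4.

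The tissue was liver by its markers, with albumin (Alb) at 80364 ± 8667 CPM in the fasted and 68048 ± 10616 CPM in the refed group (SD, n = 4 each). Of 9 hepatocyte markers 3 fell, Hnf4a (-0.71), Apob (-0.53) and Fga (-0.4), and 6 did not pass. Fga did not pass without fasted library 2 or 4 or refed library 1, 3 or 4. Endothelial (12 tested), stellate (12), cholangiocyte (8) and neutrophil (3) markers had 0 calls each, as did the Kupffer and lymphocyte markers. With 1 library left out, at most 1 marker in either direction was called on each of the Kupffer, endothelial, stellate and cholangiocyte lists. Endothelial markers, with a median of -0.32, summed to 314 to 420 CPM in the fasted and 265 to 382 CPM in the refed libraries. The globin genes Hbb-bs (-0.81) and Hbb-bt (-0.95), which mark red blood cells and are near-identical copies, fell, and the 5 tested erythroid markers summed to 246 to 636 CPM fasted and 174 to 262 CPM refed. Of 6 adipocyte markers 2 were tested (median -2.46), and they summed to 19.8 to 53.01 CPM fasted and 3.44 to 9.38 CPM refed. Nearly all of this sum was Cidec, which fasted hepatocytes also express and which fell in this comparison. The other, Cfd, stood at 1.03, 0, 0 and 0 CPM in the fasted and 0.0294, 0, 0.12 and 0.0287 CPM in the refed libraries and did not pass, and without fasted library 1 the median of the pair was 0.4. Adipoq, Plin1, Lep and Retn, the other adipocyte markers, had too few counts to be tested. The part of fat tissue in the values of Cidec and Car3 was not tested. None of 8 pancreatic acinar markers had enough counts to be tested.

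The control diet gives the reference for these responses. There refeeding changed 2552 genes (17.1%), of which 1329 rose (8.91%) and 1223 fell (8.20%). The comparisons on the 2 diets share no library, but they share the fit. Of the low isoleucine calls 52.9% (1689 genes) were also called on the control diet, which is 66.2% of the control calls, and 1688 of them had the same sign. Of the 1505 genes called on the low isoleucine diet alone, 1395 had the same sign on the control diet. Tested directly, the difference between the 2 feeding effects was past an adjusted p of 0.05 for 0 of 14920 genes (0%) by edgeR and for 0 by limma-voom, while 928 had an unadjusted p under 0.05 and DESeq2 called 35. Without fasted library 1 edgeR called 1 gene, the steroid dehydrogenase Hsd3b3, one of a family of close copies (difference 1.74, adjusted p = 0.0383). No gene below is therefore shown by edgeR to respond differently on the 2 diets, and the values are set side by side as a description.

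Igfbp1 fell by 4.22 on the log2 scale on the control diet (adjusted p = 0.0103), from 46.2, 44.6, 242 and 57.5 to 4.71, 4.03, 0.998 and 10.7 CPM (adjusted p of the difference = 0.791 by edgeR). Refed libraries 2 and 4 of the low isoleucine diet were above every refed control library. Chac1 had a log2 fold change of 1.14 on the control diet (adjusted p = 0.433), with 0.604, 0.409, 0.76 and 0.673 CPM fasted and 2.86, 0.873, 0.359 and 1.34 CPM refed (adjusted p of the difference = 0.602 by edgeR). Ciart had one of the smallest p-values for the difference (adjusted p = 0.285 by edgeR and 4.06e-04 by DESeq2). On the control diet it read 22.6, 25.4, 14.4 and 22.5 CPM fasted and 16.4, 15.7, 11.9 and 13.4 CPM refed (log2 fold change -0.56, adjusted p = 0.147).

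Other genes with small difference p-values among the low isoleucine calls were the kinase Map2k6 (log2 fold change 1.4 on the low isoleucine and -0.48 on the control diet), the actin regulator Mtss1 (0.59 and -0.15), the lactate transporter Slc16a1 (-1.43 and -0.27), the recombination gene Rad51b (-1.76 and 0.27), Atxn1 (-1.03 and 0.24) and Gm6741 (-1.16 and -0.31). The adjusted p-values of these 6 for the difference lay between 0.285 and 0.345 by edgeR, whereas by DESeq2 they lay between 1.59e-04 and 0.0252. Fmr1nb, a gene at low counts, stood at 1.51, 0.656, 0.331 and 1.38 CPM in the fasted and 0, 0.248, 0 and 0.316 CPM in the refed libraries of the low isoleucine diet (log2 fold change -2.74, SE 0.93, adjusted p = 0.048), and at 0.0711, 0.0683, 0 and 0 CPM fasted and 0.121, 0.638, 1.8 and 2.68 CPM refed on the control diet (adjusted p = 0.00694). It was lower in every refed library on one diet and higher in every refed library on the other, with an adjusted p of the difference of 0.327 by edgeR and 4.06e-04 by DESeq2. Its fall did not pass without any one of 12 of the 16 libraries in the fit (adjusted p up to 0.113). All 8 genes are thus among the 35 that DESeq2 called and edgeR did not.

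By list, the control diet gave 7 of 26 ATF4 genes higher (median 0.45), against 14 here, and 3 of 31 interferon genes higher (median 0.16), against 21 here. Of these lists 6 ATF4 and 12 interferon genes had a difference with an unadjusted p under 0.05, as had 6.22% of all genes tested. The ER chaperones (21 of 35 higher, median 0.69) and heat shock proteins (15 of 26, median 0.77) had more calls on the control diet than the 8 and 3 here, but with 2 unadjusted differences each they stood near that share of all genes. Of 24 cell cycle and DNA replication genes 7 rose and 2 fell on the control diet (median 0.61), while here the replication helicase subunit Mcm5 rose (1.14), the kinase Cdk2 fell (-0.89) and 22 did not pass (median 0.01, with a further rise without fasted library 3), and 9 had an unadjusted difference p under 0.05. Sterol genes (8 of 28 higher), tRNA synthetases (12 of 20), ribosome biogenesis (20 of 39) and the 3 fatty acid oxidation lists (9 of 26, 12 of 25 and 8 of 21 lower) moved in the same direction on both diets. Globin genes did not pass on the control diet (0.1 for Hbb-bs and 0.08 for Hbb-bt). Control refed library 4, which stands apart from its group, enters these control values.

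**Figure D5:**
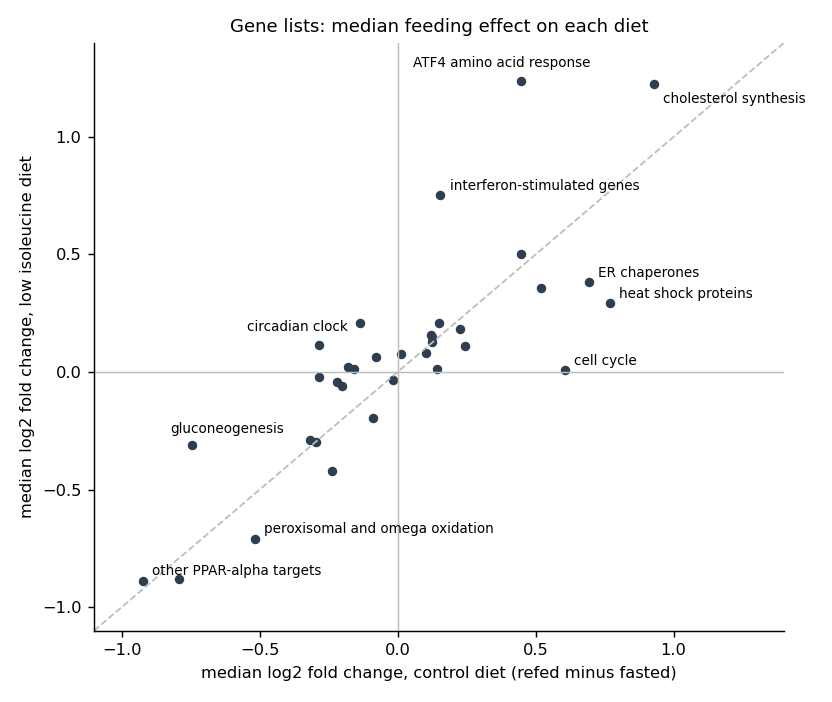
Median log2 fold change (refed minus fasted) of 34 gene lists with at least 10 tested members on the low isoleucine diet (vertical axis) and the control diet (horizontal axis), with the line of equal medians dashed. The ATF4 list (1.24 and 0.45) and the interferon list (0.75 and 0.16) lie above the line, and ER chaperones, heat shock and cell cycle genes lie below it.

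Positions are given for the genes shown most fully, matched by identifier to GENCODE M21 (build GRCm38). Fasn (ENSMUSG00000025153) lies on chromosome 11 from 120805846 to 120824547, Pck1 (ENSMUSG00000027513) on chromosome 2 from 173153048 to 173159273 and Cpt1a (ENSMUSG00000024900) on chromosome 19 from 3322334 to 3385733. Chac1 (ENSMUSG00000027313) lies on chromosome 2 from 119351229 to 119354381, Oasl1 (ENSMUSG00000041827) on chromosome 5 from 114923240 to 114937915 and Ppp1r3g (ENSMUSG00000050423) on chromosome 13 from 35958839 to 35970388.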

How the data were processed

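Liver mRNA of 16 male mice was sequenced, and the authors deposited expected counts per gene from RSEM, which are estimated counts that need not be whole, per the file name and header. Libraries were stranded and poly-A selected, and data of 3 lanes were merged per sample, per the labels' protocols. No source used here names the aligner, genome build or annotation. Here the expected counts were rounded to whole numbers, filtered with edgeR 4.0.16 (filterByExpr, minimum count 10, minimum total 15; 14920 of 51912 genes kept), scaled by TMM and fitted with the robust quasi-likelihood test over the 4 groups of all 16 libraries in R 4.3.3. P-values were adjusted over all genes tested (Benjamini-Hochberg), with 0.05 as the threshold. SEs come from the fold change and its F statistic. In a simulation of the low isoleucine comparison on 14745 genes, 70 genes were changed 1.5-fold, 70 were changed 2-fold and 60 were changed 4-fold. There edgeR found 27.1% of the 1.5-fold, 67.1% of the 2-fold and 100% of the 4-fold changes and made 8 false calls among 134. Far fewer genes changed in it than were called in the data. Each simulated gene also took its spread from the trend over expression level. Apart from the set changes, its mean was the same in all 16 libraries after scaling, so no library stood apart. These shares therefore need not hold for the data. Limma 3.58.1 and DESeq2 1.42.0 served as alternatives. The letter marks in the labels were checked as pairs and did not pair the low isoleucine libraries (correlations of deviations -0.0336, 0.0187, -0.259 and 0.229).

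The comparison and the 44 gene lists were chosen with earlier results of these data known, and the interferon and ATF4 words after the values were seen. Named genes were the 12 largest rises and 12 largest falls with at least 1 CPM and no overlap, up to 6 called members per list, fixed single genes and the 8 smallest difference p-values. Acly, Elovl6, Lss, Insig2, Gpt, Gsk3b, Gk, Atf4, Psph, Slc3a2, Slc6a12, Slc25a13, Slc38a4, Dpyd, Mat1a, Atg4b, Nprl2, Nprl3, Atf6, Mx1, Usp18, Psmb8, Cry1, Clock, Nr1d2, Rora, Tsc22d3, Smoc1, Stat5b and Hsd3b3 were named after their values were seen. Some genes of these lists are counted in them but not reported here.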

Additional observations from a re-analysis of the deposited data

Results flagged for a closer look

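In 7 of 82 groups examined (41 genes, fasted and refed) 1 library lay apart from the other 3 by Dixon's test, with its gap above the 95% critical value. Chance flags about 1 in 20 groups. Among the fasted libraries, library 1 was apart for the sterol enzyme Idi1, at 140.6 CPM against 38.7 to 46.9 CPM in the others, and for the phosphatase Ppm1k, at 133.7 CPM against 83.2 to 91.1 CPM. Among the refed libraries, library 3 was low for Aacs, at 30.94 CPM against 49.5 to 52.6 CPM, and high for Cyp7a1, at 671.6 CPM against 269 to 314 CPM. Refed library 1 was high for Pklr, at 269 CPM against 150.2 to 161 CPM. Refed library 2 was high for Ehhadh, at 2654 CPM against 1505 to 1616 CPM. Refed library 4 was high for Ciart, at 26.28 CPM against 17.5 to 18.9 CPM. Fasted library 1 and refed library 3, the libraries with the highest mitochondrial and Mup shares, account for 4 of the 7. The part of library quality in these values was not tested.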

How the results depend on the processing

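The number of genes called on the low isoleucine diet was 3639 by DESeq2, 3235 by limma-voom, 2583 with no filter, 3137 from the 8 libraries alone, 2761 without fasted library 1 and refed library 3 (chosen after seeing the data) and 3194 in the fit reported. Leaving out 1 library at a time gave 2423 to 3601 calls, and 1817 to 2743 on the control diet. With library size alone 1153 genes were lower. Testing against a 1.5-fold change left 493 calls (158 higher, 335 lower) and 305 on the control diet, as a stricter null does. The difference between diets had 35 calls by DESeq2, and 1 by edgeR without low isoleucine fasted library 1. The cause was not tested. In the simulation of the low isoleucine comparison DESeq2 made 29 false calls of 162. The difference between diets was not simulated, so that share cannot be carried over to the 35 calls. With the letter marks as a replicate block 2983 genes were called on the low isoleucine diet, 2301 on the control diet and 0 for the difference, and 1 of 4 fasted libraries correlated best with its own mark; the samples share only a mark. Of the 204 named genes 198 had an adjusted p under 0.05 after rounding to 3 digits. Of these 80 were called under every alternative run and 118 were lost in at least 1, and none changed sign. The glycogen gene Gbe1, called with an adjusted p that rounds to 0.05, is not in these counts. Its call ended on leaving out any one of 12 libraries. Many of the 118, such as Insr, Foxo1 and Mtor, were lost only in the test against a 1.5-fold change, which is a stricter null. At 29460888 to 34002955 counts a library, genes changed 1.5-fold were mostly missed in simulation. Far fewer genes were changed there than the 3194 called here, and the adjusted p is stricter when fewer genes change. The share of 1.5-fold changes missed in the data was therefore not measured.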
